A study of Mus musculus with 17 samples.

Results

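Activity-induced genes are transcribed soon after neurons fire, and 10 of them were followed here through the ageing mouse hippocampus: the synaptic effectors Arc, Nptx2 and Bdnf, the transcription factors Npas4, Nr4a1, Nr4a2 and Nr4a3, and the response regulators Ier2, Dusp1 and Btg2. They were chosen by name as genes of this program and are 10 of the 38355 genes in the count files. Hippocampi of untreated wild type C57BL/6J mice were dissected by hand, and polyA RNA was sequenced from 17 libraries. Of the single-end libraries 5 were from mice aged 3 months (3M) and 6 from mice aged 24 months (24M). Of the paired-end libraries 3 were from mice aged 3 months and 3 from mice aged 29 months (29M). The groups carried no transgene and received no agent, so within a library type the groups differed in age. Mice of the 29M group had been bought as aged animals and kept on in the holding rooms. In the study, object recognition was tested in mice aged 3 and 24 months but not in those aged 29 months, which moved too little. The sources used here do not say whether the sequenced mice were among those tested, or at what hour they were dissected.

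When a neuron fires, calcium entry activates kinases that phosphorylate transcription factors already bound at rapid-response promoters, among them CREB at cAMP response elements (CREs) and SRF at serum response elements. The first wave encodes transcription factors such as Npas4 and the NR4A receptors, which switch on later genes, together with effectors that act directly at synapses. The transcripts are short-lived, and their level in the hippocampus rises after a new environment, learning or a seizure and falls back soon after.

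The libraries held 9213474 to 28438296 reads counted on genes, with a median of 20289215 in the 3M single-end group, 14363897 at 24M, 12061193 in the 3M paired-end group and 11701706 at 29M. Levels are given as CPM (read counts scaled to a common library total) on library sizes scaled by TMM, and single-end and paired-end libraries were scaled separately. All 8 genes of a list of hippocampal markers, among them Prox1, were tested at both ages with none called. On the adjusted p alone 1 of the 8 was lower at 29M (2.99% of all genes in either direction) and none at 24M (5.58%). In 24M replicates 1 and 4, the squared difference between the libraries was 0.406 of its binomial variance, under the 1 that counting alone gives and under the 1.23 or more of the other 135 pairs. They were therefore not taken as independent mice but averaged and counted once, which left 5 samples at 24M. Where replicate 1 or 4 was left out of a fit, the other stood in for their mean, so 5 samples remained. Calls rest on edgeR (quasi-likelihood test, Benjamini-Hochberg adjustment over all genes tested) and need an adjusted p of 0.05 or less together with a log2 fold change of 0.5 or more in size. These p-values measure the spread between the samples of a group, and in whole tissue fewer cells of a type and less RNA per cell cannot be told apart.

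Promoter windows (250 bases before to 50 after an annotated start, RefSeq, GRCm38.p6) were found for 7 of the genes: Npas4, Nr4a1, Nr4a2, Nr4a3, Dusp1, Btg2 and Bdnf. Bdnf has 7 windows, in genomic order, and the others 1 each. The windows were searched on both strands for 7 motifs. These were the CRE core (TGACG), the full CRE (TGACGTCA, which holds 2 cores on opposite strands), the EGR site (GCGNGGGCG), the AP-1 site (TGANTCA), the TATA box (TATAAA), the NR4A response element (AAAGGTCA) and the serum response element core. The stretches around the CRE cores are shown because the core was the motif that all 7 genes held, and capitals mark it, read as TGACG or, on the other strand, CGTCA. The cores of Npas4 and 1 of the 4 of Nr4a3 lie in annotated exons and are not printed.
Btg2, chr1:134079302-134079333, minus strand: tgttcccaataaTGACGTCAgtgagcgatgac
Dusp1, chr17:26508596-26508675, minus strand: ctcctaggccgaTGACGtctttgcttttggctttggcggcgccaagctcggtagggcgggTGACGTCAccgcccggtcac
Nr4a1, chr15:101266601-101266822, plus strand: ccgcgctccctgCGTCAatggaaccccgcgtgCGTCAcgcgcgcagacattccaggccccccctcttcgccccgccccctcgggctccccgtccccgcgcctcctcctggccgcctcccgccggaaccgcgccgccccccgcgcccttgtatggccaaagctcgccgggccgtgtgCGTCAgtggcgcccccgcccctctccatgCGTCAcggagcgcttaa
Nr4a2, chr2:57124098-57124215, minus strand: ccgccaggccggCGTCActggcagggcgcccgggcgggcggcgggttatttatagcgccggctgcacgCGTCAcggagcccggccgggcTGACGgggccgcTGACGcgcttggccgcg
Nr4a3, chr4:48045062-48045116, plus strand: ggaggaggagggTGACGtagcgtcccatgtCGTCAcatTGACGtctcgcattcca
Bdnf (window 3), chr2:109692389-109692417, plus strand: tatgacagctcaCGTCAaggcagcgtgga

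The CRE core was present in 7 of these 13 windows, 1 for each gene, and in 20.8% of all 32851 promoter windows. A full CRE was found in the windows of Btg2 and Dusp1 and in 1.79% of all windows. The EGR site was found in those of Btg2, Nr4a1 and Nr4a2 (5.55% of all windows) and a TATA box in that of Nr4a2 (13.6%). The pattern searched as AP-1 site, with any base in the middle, matched window 2 of Bdnf (as TGAATCA) and 7.81% of all windows. Neither the serum response element core (1.63% of all windows) nor the NR4A response element (1.51%) was found in the 13 windows. A match describes letters in a window and is no measurement of binding, and genes with and without a motif were not compared.

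**Figure D1:**
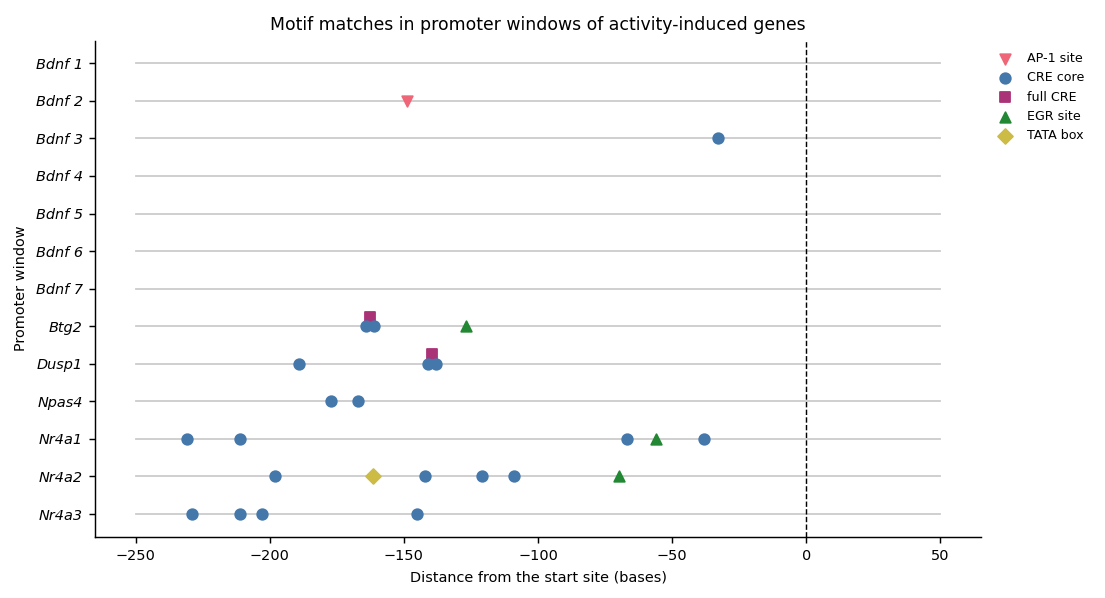
Positions of motif matches in the 13 promoter windows of 7 activity-induced genes, in bases from the annotated start (dashed line at 0). Each row is 1 window and each symbol 1 match: Nr4a1, Nr4a2 and Nr4a3 hold 4 CRE cores each, and of the 7 Bdnf windows only window 3 holds one.

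At 24M, 4 of the 10 genes were called lower than at 3M: Arc, Nptx2, Ier2 and Btg2. None was called higher. Among all 15683 genes tested, 0.638% were called lower and 1.34% higher. The median log2 fold change of the 10 genes was -0.63, beside -0.0032 over all genes tested, 8 of the 10 lay below 0 (50.8% of all genes) and 7 at -0.5 or lower (2.25% of all genes). The same 4 genes passed the adjusted p alone, as 5.58% of all genes did. At 29M none of the 10 was called, their median was 0.05 beside -0.0021 over the 15097 genes tested, and 0.113% of all genes were called lower and 1.34% higher. There 4 of the 10 lay below 0 (50.6% of all genes), none at -0.5 or lower (1.52%), and none passed the adjusted p alone (2.99%). At an unadjusted p under 0.05, edgeR had 8 of the 10 at 24M (26.1% of all genes) and 1 at 29M (17.3%). With DESeq2 the same 4 genes were called at 24M and none at 29M.

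**Figure D2:**
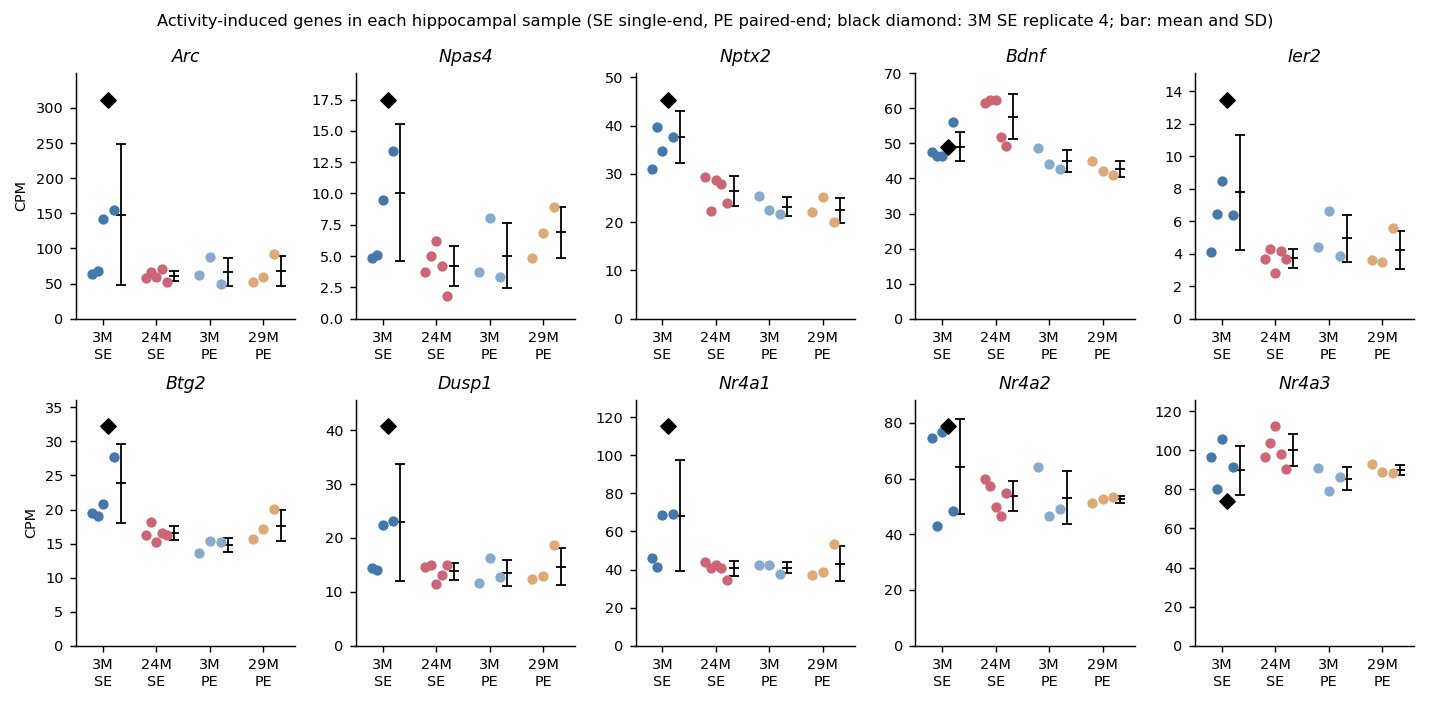
Level of the 10 genes in every sample, in CPM on the vertical axis of each panel, by age and library type, with the mean and SD as a bar beside the points and 3M single-end replicate 4 as a black diamond. For Arc, 3M single-end samples ran from 64.0 to 311.9 CPM while 24M samples stayed between 52.8 and 70.6 CPM.

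Arc (ENSMUSG00000022602, chr15:74669083-74672570, minus strand) encodes a capsid-like protein that removes AMPA receptors from synapses. In 3M single-end replicates 1 to 5 it stood at 64.0, 68.6, 141.7, 311.9 and 155.1 CPM, and in the 24M samples (the averaged pair and replicates 2, 3, 5 and 6) at 58.3, 66.5, 59.1, 70.6 and 52.8 CPM. The groups overlap: 3M replicates 1 and 2 lay within the 24M range and the other 3 above it, replicate 4 far above. Arc fell from a 3M mean of 148.3 ± 100.4 CPM (SD, n = 5) to 61.5 ± 7.07 CPM (n = 5), which is -1.27 ± 0.34 on the log2 scale (SE, edgeR adjusted p = 0.0487). The call was lost without 3M replicate 3 or 4, or without 24M replicate 2, 3, 5 or 6. It was also lost when 24M replicate 4 stood in for the averaged pair, but not when replicate 1 did. Without 3M replicate 4 the log2 fold change was -0.80 and the adjusted p 0.0756. Over the fits that lost the call the adjusted p reached 0.108. In the paired-end libraries Arc was at 61.8, 88.2 and 49.5 CPM at 3M and at 51.7, 59.3 and 92.5 CPM at 29M. These groups cover nearly the same range, with a log2 fold change of 0.03 (95% interval -0.41 to 0.46, adjusted p = 0.966).

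Nptx2 (ENSMUSG00000059991, chr5:144545902-144557478, plus strand) encodes neuronal pentraxin 2, a secreted protein that gathers AMPA receptors at excitatory synapses on interneurons. Its 3M single-end levels were 31.0, 39.8, 34.8, 45.4 and 37.6 CPM, and its 24M levels 29.3, 22.4, 28.7, 27.9 and 24.0 CPM. Every 24M sample was below every 3M sample, which held for 1 other of the 10 genes, Btg2, and for 3.42% of all genes. No gene of the 10 had every 24M sample above every 3M sample (3.15% of all genes). Nptx2 fell from 37.7 ± 5.43 to 26.5 ± 3.10 CPM (n = 5 each), a log2 fold change of -0.50 ± 0.10 (edgeR adjusted p = 0.0185), which is at the fold threshold itself. Leaving out 3M replicate 2 or 4, or 24M replicate 2 or 6, ended the call. The log2 fold change stayed between -0.57 and -0.43 and the adjusted p between 0.0105 and 0.0592 over the 11 fits with 1 library left out. The paired-end levels were 25.4, 22.5 and 21.6 CPM at 3M and 22.2, 25.2 and 20.0 CPM at 29M, with no separation (log2 fold change -0.05, 95% interval -0.25 to 0.15, adjusted p = 0.83). The 3M paired-end samples of Nptx2 thus sat at 21.6 to 25.4 CPM, near the 24M samples, though the library types were scaled apart and were not tested against each other.

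Bdnf (ENSMUSG00000048482, chr2:109674700-109727007, plus strand) encodes brain-derived neurotrophic factor, a growth factor for synapses whose promoters respond separately to activity. It stood at 47.4, 46.4, 46.4, 48.9 and 56.2 CPM in the 3M single-end samples and at 61.6, 62.4, 62.5, 51.9 and 49.3 CPM at 24M. Its log2 fold change was 0.23 ± 0.08 (95% interval 0.06 to 0.40, edgeR adjusted p = 0.0914), opposite in sign to that of Arc and Nptx2. In the paired-end libraries it was at 48.6, 44.1 and 42.6 CPM at 3M and at 45.1, 42.0 and 40.9 CPM at 29M (log2 fold change -0.08, 95% interval -0.22 to 0.06, adjusted p = 0.591). Exons of Bdnf overlap those of the antisense gene Gm45346, which the count files do not list, and with a library kit that does not mark strand the reads of the 2 genes cannot be told apart. All transcripts of Bdnf are in 1 count, so its promoters are not resolved here.

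Npas4 (ENSMUSG00000045903, chr19:4984355-4990316, minus strand), a transcription factor induced almost only by activity in neurons, had the lowest level per kilobase of exon of the 10 genes in all 4 groups. It stood at 4.82, 5.09, 9.50, 17.5 and 13.4 CPM at 3M and at 3.75, 5.01, 6.24, 4.24 and 1.83 CPM at 24M in the single-end libraries, on 17 to 344 reads per sample. As for Arc, 3M replicates 3, 4 and 5 were above every 24M sample and replicates 1 and 2 were not. The log2 fold change of -1.20 ± 0.36 missed the threshold (edgeR adjusted p = 0.0621), and without 3M replicate 2 it passed (adjusted p = 0.0431). At 3M in the paired-end libraries Npas4 was at 3.74, 8.05 and 3.33 CPM, and at 29M at 4.88, 6.85 and 8.94 CPM. Its log2 fold change there was 0.41 with a wide interval (-0.22 to 1.04, adjusted p = 0.517), and leaving out single libraries moved it between 0.16 and 0.97.

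The NR4A genes encode orphan nuclear receptors that bind DNA as monomers or dimers and are needed for long-term memory in the hippocampus, and the 3 of them differed in pattern. Nr4a1 (ENSMUSG00000023034, chr15:101254269-101274795, plus strand) was at 46.2, 41.4, 68.7, 115.1 and 69.3 CPM in the 3M single-end samples and at 44.2, 40.7, 42.6, 41.0 and 34.3 CPM at 24M. All but 3M replicate 2 lay above the 24M samples. Its log2 fold change was -0.74 ± 0.22 (edgeR adjusted p = 0.0603), past the threshold without 3M replicate 2 or 5 (adjusted p down to 0.0292). Without 3M replicate 4 the log2 fold change was -0.47 (adjusted p = 0.0856).

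Nr4a2 (ENSMUSG00000026826, chr2:57106830-57124003, minus strand) was at 74.4, 42.9, 76.8, 78.7 and 48.5 CPM at 3M and at 59.9, 57.5, 49.7, 46.7 and 54.9 CPM at 24M. Here 3M replicates 1, 3 and 4 were high and replicate 5 was low, another order than for Arc and Nr4a1. The log2 fold change was -0.26 ± 0.15 (edgeR adjusted p = 0.30). Nr4a3 (ENSMUSG00000028341, chr4:48045153-48086447, plus strand) was at 96.6, 80.4, 105.6, 74.2 and 91.7 CPM at 3M and at 96.6, 103.9, 112.2, 98.3 and 90.2 CPM at 24M. It was lowest in 3M replicate 4, where 8 of the 10 genes were highest, and its log2 fold change was 0.16 ± 0.09 (adjusted p = 0.27).

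In the paired-end libraries Nr4a1 stood at 42.6, 42.5 and 37.9 CPM at 3M and at 37.0, 38.5 and 53.6 CPM at 29M. Nr4a2 stood at 64.2, 46.4 and 48.9 CPM and then at 51.3, 52.7 and 53.5 CPM. Nr4a3 stood at 90.9, 79.3 and 86.1 CPM and then at 92.9, 88.7 and 88.6 CPM. The groups overlapped for all 3 receptors, with log2 fold changes of 0.08, -0.01 and 0.08 and no 95% interval reaching beyond -0.22 or 0.32.

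Ier2 (ENSMUSG00000053560, chr8:84661331-84662852, minus strand) encodes a small nuclear protein of the rapid response. Its 3M single-end levels were 4.14, 6.44, 8.51, 13.5 and 6.37 CPM and its 24M levels 3.68, 4.32, 2.83, 4.18 and 3.66 CPM, on 34 to 264 reads per sample. Only 3M replicate 1 came down to the 24M range. Ier2 fell by 1.06 on the log2 scale (SE 0.26, edgeR adjusted p = 0.0358), to 48.0% of the 3M mean. The call was lost without 3M replicate 3 or 4 or without 24M replicate 2, 3 or 6, with adjusted p up to 0.084 and, without 3M replicate 4, a log2 fold change of -0.78 (adjusted p = 0.0517). In the paired-end libraries it was at 4.41, 6.61 and 3.87 CPM at 3M and at 3.62, 3.52 and 5.60 CPM at 29M (log2 fold change -0.23, 95% interval -0.74 to 0.27, adjusted p = 0.665).

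Btg2 (ENSMUSG00000020423, chr1:134075170-134079120, minus strand) encodes an antiproliferative cofactor of mRNA deadenylation. It was at 19.5, 19.1, 20.8, 32.2 and 27.7 CPM at 3M and at 16.3, 18.1, 15.3, 16.5 and 16.3 CPM at 24M, so the 24M samples were all lower. Btg2 fell from 23.9 ± 5.83 to 16.5 ± 0.99 CPM (n = 5 each), a log2 fold change of -0.53 ± 0.14 (edgeR adjusted p = 0.0406). Leaving out 3M replicate 4 or 5, or 24M replicate 2, 3, 5 or 6, ended the call. It stood at -0.40 (adjusted p = 0.065) without 3M replicate 4, and the adjusted p was at most 0.0835. The paired-end levels were 13.6, 15.4 and 15.3 CPM at 3M and 15.6, 17.2 and 20.1 CPM at 29M. Here every 29M sample was above every 3M sample, as for 11.9% of all genes, while none of the 10 genes had all 29M samples below all 3M samples (10.5% of genes). This came with a log2 fold change of 0.26 ± 0.10 (95% interval 0.04 to 0.48) that missed the threshold (adjusted p = 0.212).

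Dusp1 (ENSMUSG00000024190, chr17:26505590-26562128, minus strand) encodes a phosphatase that switches off MAP kinases. It was at 14.4, 14.0, 22.4, 40.7 and 23.1 CPM at 3M and at 14.6, 15.0, 11.4, 13.1 and 14.9 CPM at 24M, the split between replicates 1 and 2 and replicates 3 to 5 already seen for Arc and Npas4. Its log2 fold change was -0.74 ± 0.24 (edgeR adjusted p = 0.0844) and -0.43 without 3M replicate 4 (adjusted p = 0.132). At 11.7, 16.2 and 12.7 CPM at 3M and 12.4, 13.0 and 18.7 CPM at 29M, the paired-end groups overlapped (log2 fold change 0.12, 95% interval -0.21 to 0.46, adjusted p = 0.747). Exons of Dusp1 overlap those of Ergic1 on the opposite strand, so part of its reads may be uncertain.

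**Figure D3:**
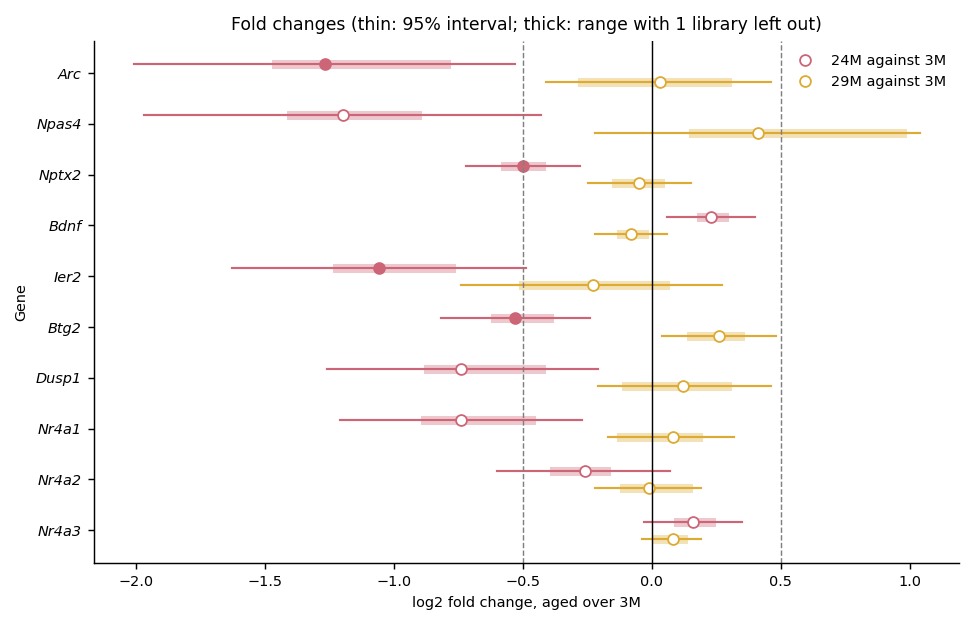
log2 fold change of the aged over the 3M group for the 10 genes at 24M and 29M, with the 95% interval as a thin line and the range over fits with 1 library left out as a thick one. Filled circles mark the 4 genes called at 24M (Arc, Nptx2, Ier2 and Btg2) and dashed lines the fold threshold of 0.5. At 29M no gene was called, and every circle lies between -0.23 and 0.41.

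Per kilobase of exon, Arc had the highest level of the 10 genes in all 4 groups, at 48.5 CPM per kb in the 3M single-end group, 20.1 at 24M, 21.8 in the 3M paired-end group and 22.2 at 29M. Nr4a1 was second in the 3M single-end group (19.4 CPM per kb) and came after Nr4a3 and Nr4a2 in the other 3 groups (11.6 to 12.3). Nptx2, Dusp1, Ier2 and Npas4 held the same places in all 4 groups, and Btg2 and Bdnf exchanged theirs. In the 3M single-end group the levels of Nr4a2, Nr4a3 and Nptx2, at 15.8, 15.0 and 14.9 CPM per kb, differed by less than their spread. The 24M, 3M paired-end and 29M groups thus shared 1 order of the 10 genes, and the 3M single-end group had another.

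The spread among the 3M single-end mice was itself large. The SD of log2 CPM over these 5 libraries was 0.94 for Arc, and 0.304% of the 14450 genes with a mean of at least 1 CPM had a larger one. It was 0.82 for Npas4 (0.595% of genes larger), 0.62 for Dusp1 and Ier2 (1.74% and 1.79%) and 0.58 for Nr4a1 (2.15%). The spread was smaller for Nr4a2 (0.41), Btg2 (0.34), Nptx2 (0.21) and Nr4a3 (0.20), and that of Bdnf (0.12) was exceeded by 59.3% of genes. The median SD of the 10 genes was 0.50 in this group beside 0.13 over all genes, 0.16 beside 0.12 at 24M, 0.18 beside 0.09 in the 3M paired-end group and 0.24 beside 0.08 at 29M. At 24M, Npas4 kept a wide spread (SD 0.65) while Arc (0.17) and Nr4a1 (0.14) did not. In both paired-end groups Npas4 (0.67 and 0.43), Arc (0.42 and 0.44) and Ier2 (0.39 and 0.36) had the widest spreads of the 10.

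**Figure D4:**
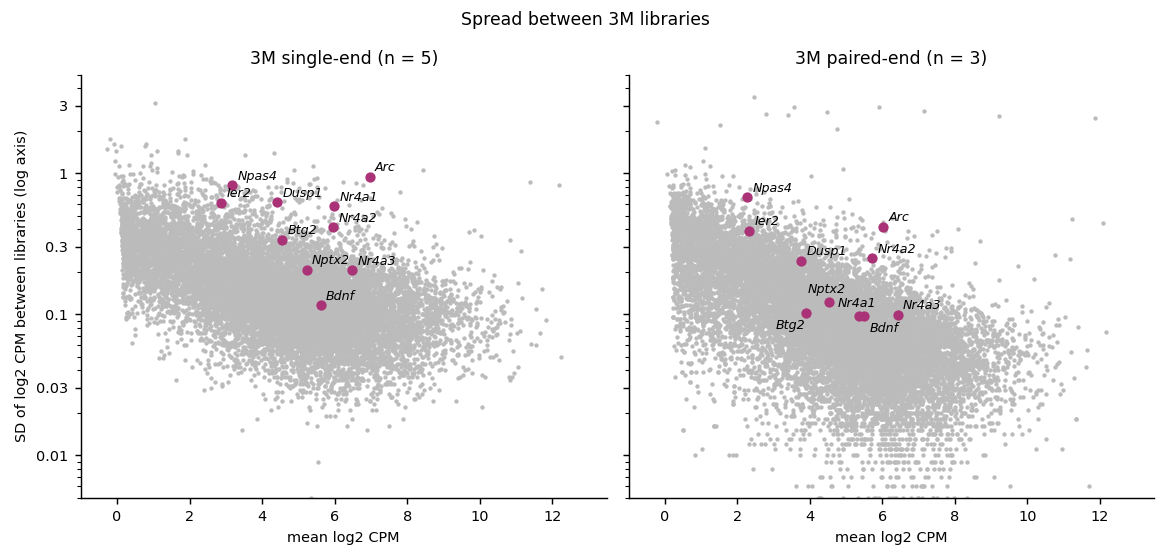
SD of log2 CPM between the 3M libraries (log axis) against mean log2 CPM, for all genes with a mean of at least 1 CPM (grey) and the 10 activity-induced genes (purple), in the single-end (left) and paired-end group (right), leaving out genes with SDs under the end of the axis. Arc, at an SD of 0.94 in the single-end group, lies above most genes of its level, and Bdnf, at 0.12, within the cloud.

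High values fell mostly in the same libraries. In 3M single-end replicate 4, 8 of the 10 genes were at the group's highest level, while replicate 1 held the lowest level of 4 genes and replicate 2 of 5. The summed level of the 10 genes was 402.4, 364.1, 535.1, 778.2 and 528.9 CPM in replicates 1 to 5, and 342.3 to 395.8 CPM in the 24M samples. In the paired-end libraries it was 321.8 to 369.2 CPM at 3M and 336.8 to 402.4 CPM at 29M. Replicates 1 and 2 thus lay near the level of the other 3 groups, and replicates 3, 4 and 5 above all samples of those groups. The library types were scaled separately, though, and were not tested against each other. Without replicate 4 the median SD was 0.39, the median log2 fold change at 24M was -0.43, and none of the 10 genes was called.

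**Figure D5:**
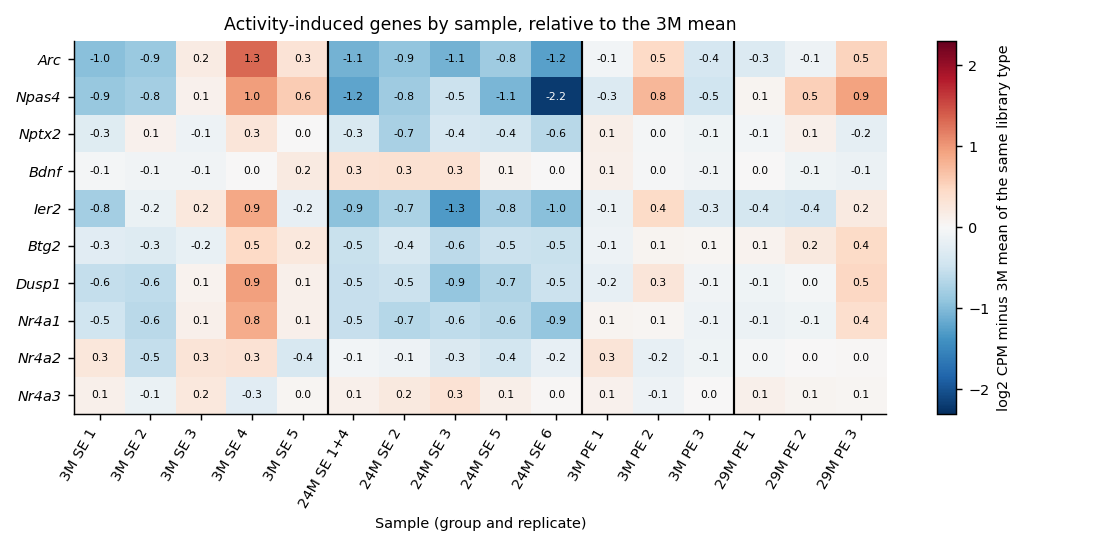
log2 CPM of the 10 genes (rows) in every sample (columns), less the 3M mean of the same library type, with the value in each cell. 3M single-end replicates 1 and 2 resemble the 24M samples for Arc (-1.0 and -0.9 beside -1.2 to -0.8), and replicate 4 stands at 1.3. In the paired-end groups the same gene runs from -0.4 to 0.5.

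Replicate 4 also stood apart in marker genes of neighbouring regions. The summed level of 10 striatal genes was 553.7 CPM in it, 202.2 to 261.8 CPM in the other 3M single-end samples and 215.4 to 246.4 CPM at 24M, and Adora2a belongs to this list. That of 10 neocortical genes was 471.8 CPM in it, 351.0 to 396.3 CPM in the other 3M samples and 297.4 to 324.3 CPM at 24M. The hippocampal list was lowest in it, at 966.9 CPM beside 1091.9 to 1266.4 CPM. At 24M all 10 striatal genes had log2 fold changes below 0 (50.8% of all genes), with a list median of -0.55 and none called. Without 3M replicate 4 the striatal median was -0.01. All 10 neocortical genes had log2 fold changes below 0 at 24M (list median -0.36), and Cux2 (-0.53) and Lamp5 (-0.65) were among those called. Without 3M replicate 4 the neocortical median was -0.34, and 1 gene of the list was called lower. In the paired-end libraries the neocortical sum was 304.4 to 329.3 CPM at 3M and 294.1 to 324.0 CPM at 29M. Without 3M replicate 1, 2 or 4 or 24M replicate 3 Cux2 and Lamp5 were not called, without 24M replicate 1, 5 or 6 Lamp5 was not, and without 24M replicate 2 neither was. Their part in the levels of the activity-induced genes was not tested. Replicates 3 and 5, which also held over 2 times the Arc level of replicate 1, had striatal sums of 202.2 and 261.8 CPM and neocortical sums of 351.0 and 368.0 CPM. The hypothalamic list was near 0 throughout, with a summed level of at most 12.2 CPM.

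The 24M and 29M contrasts use separate 3M mice, and their difference was tested in 1 fit over the 4 groups. The effect at 29M less that at 24M was 1.62 ± 0.60 log2 units for Npas4, 1.29 ± 0.54 for Arc, 0.86 ± 0.39 for Dusp1, 0.81 ± 0.33 for Nr4a1, 0.79 ± 0.21 for Btg2, 0.45 ± 0.17 for Nptx2 and -0.32 ± 0.12 for Bdnf. These 7 genes had an unadjusted p under 0.05, as 10.4% of all 16055 genes had. None of the 10 genes, and none of the 16055, passed the adjusted threshold with edgeR or DESeq2, and the smallest adjusted p of the 10 was 0.392, for Btg2. Age, library type and cohort cannot be told apart in this difference. For Nr4a2 (0.24, 95% interval -0.26 to 0.75), Nr4a3 (-0.09, -0.36 to 0.19) and Ier2 (0.83, -0.09 to 1.75) the interval included 0.

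Other genes of the program were counted from lists. Of 16 other rapidly induced transcription factors, 3 were called lower at 24M and none higher, with a median log2 fold change of -0.31. Egr1 fell from 167.1 ± 71.6 to 86.6 ± 9.92 CPM (log2 fold change -0.94, edgeR adjusted p = 0.0272), Junb from 54.7 ± 18.2 to 32.7 ± 1.83 CPM (-0.74, adjusted p = 0.0334) and Egr4 from 28.5 ± 8.11 to 18.0 ± 1.62 CPM (-0.66, adjusted p = 0.0326). Fos stood at 15.9 ± 13.5 and 4.76 ± 1.09 CPM (-1.74, adjusted p = 0.0613), and Egr3, with little spread, at 46.3 ± 2.03 and 37.2 ± 1.79 CPM (-0.31, adjusted p = 0.00887, under the fold threshold). Without 3M replicate 3 or 4 or 24M replicate 3 Egr1 alone was called on this list, and without 24M replicate 2 or 6 no gene was. Without 3M replicate 1 or 2, Fos and Egr2 were called too, and Nfil3 was without 3M replicate 2 or 5 or 24M replicate 4 or 5. At 29M none of the 16 was called and the median was 0.06.

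Of 23 other rapidly induced effectors, Ier5 (log2 fold change -0.53, adjusted p = 0.0113) and Ier5l (-0.73, adjusted p = 0.0312) were called lower at 24M by edgeR, with a list median of -0.14. Neither was called without 3M replicate 4 or 24M replicate 3, and Ier5l was not called without 3M replicate 3 or 24M replicate 2. On this list 16 of the 23 genes lay below 0 at 24M. Ptgs2 was higher at 24M (0.49, edgeR adjusted p = 0.022) and at 29M (0.32, adjusted p = 0.0129), under the fold threshold at both. It was called higher at 24M without 3M replicate 5 or 24M replicate 6. Homer1 (0.05), whose short form is induced by activity, and Per1 (-0.05) were near 0. Among 15 tested genes of the slower wave, such as Vgf and Scg2, none was called in either direction (median -0.14). The same held for 13 partners and receptors, with Ntrk2, the BDNF receptor gene, at -0.03, the NPTX2 partners Nptx1 and Nptxr at 0.02 and -0.04, the NR4A partner Rxra at 0.10 and the NPAS4 partner Arnt2 at -0.03. It held also for 17 kinases and factors upstream, with Creb1 at 0.28 (adjusted p = 0.0757) and Srf at -0.13 (adjusted p = 0.188). On the adjusted p alone 2 of these 17 were lower and 1 higher at 24M (5.58% of all genes in either direction). At 29M 1 of the 17 was higher on it (2.99%). Without 3M replicate 3, 1 of the 17 was called lower at 24M. At 29M no gene of these lists was called.

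Lists of other states were counted beside these. Of 8 glucocorticoid-responsive genes Sgk1 was called higher at 24M (log2 fold change 0.55, edgeR adjusted p = 0.042), and of 10 tested clock genes Ciart (0.71, adjusted p = 0.00339) and Nr1d2 (0.53, adjusted p = 0.0154). The clock gene Arntl went the other way (-0.45, adjusted p = 0.00237), under the fold threshold. On the adjusted p alone 5 clock genes were higher and 1 lower at 24M, beside 5.58% of all genes in either direction, and 4 of the 10 lay below 0. The 3 calls remained without 3M replicate 4. Ciart was called whichever library was left out, Nr1d2 not without 3M replicate 1 or 3 or 24M replicate 2, and Sgk1 not without 3M replicate 1, 2 or 3 or 24M replicate 2, 3, 5 or 6. The list medians were 0.23 and 0.24 at 24M and 0.05 for both at 29M, where none was called. Of the markers of other cell types, none of 10 neuronal genes was called at either age. Of 10 endothelial genes Cldn5 alone was called at 24M, lower (-0.60, edgeR adjusted p = 0.0242), while the list median was 0.08 and 4 of the 10 lay below 0, and none was called at 29M (median -0.13). Of 10 microglial genes 1 was called higher at each age, P2ry12 at 24M (0.52, adjusted p = 0.0342) and Tmem119 at 29M (0.51, adjusted p = 0.0183), with list medians of 0.32 and 0.33. On the adjusted p alone 6 microglial genes were higher at 24M and 7 at 29M, none lower, beside 5.58% and 2.99% of all genes. Cldn5 was not called without 3M replicate 1 or 24M replicate 2 or 3, P2ry12 not without 3M replicate 1, 3 or 4 or 24M replicate 2, 3 or 6, and Tmem119 not without 3M paired-end replicate 3 or 29M replicate 1 or 3. Their part in the levels of the activity-induced genes was not tested.

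The genes closest to each of the 10 were sought by the root mean square difference of log2 CPM, centred on the 3M mean of the library type, over 16 samples and 14089 other genes, as a description. Arc, Npas4, Nr4a1, Ier2, Dusp1 and Btg2 had other rapidly induced genes among their 3 nearest. For Arc these were Egr1 (0.26 log2 units), Ier2 (0.29) and Nr4a1 (0.32), beside a median of 0.79 over all genes. For Npas4 they were Arc, Egr1 and Fos (0.40 to 0.47), for Nr4a1 Junb, Dusp1 and Egr1 (0.13 to 0.17), for Dusp1 Nr4a1, Junb and Sik1 (0.16 to 0.20), and for Ier2 Junb, Baiap3 and Egr1 (0.26 to 0.29). Btg2 lay closest to Gadd45b, Ier5 and Insm1 (0.14 to 0.16), of which Gadd45b and Ier5 are on the list of other rapidly induced effectors. For the others many genes outside the 10 lay closer than any of the 10. The closest of the 10 ranked 884 for Nptx2 (Btg2, 0.25 log2 units) and 1678 for Nr4a3 (Bdnf, 0.15). It ranked 2079 for Bdnf (Nr4a3, 0.15) and 8296 for Nr4a2 (Nr4a3, 0.33). The medians over all genes were 0.35 for Nptx2, 0.22 for Nr4a3, 0.23 for Bdnf and 0.31 for Nr4a2. The closest of the 10 thus lay under this median for Nptx2, Nr4a3 and Bdnf, and over it for Nr4a2. The nearest genes were Utp14b, Abi3bp and Ngef for Nptx2, Dock9, Stum and Raver2 for Nr4a3, Calm2, Yaf2 and Ostm1 for Bdnf, and Fastkd5, Vgf and Cdk20 for Nr4a2. These samples share libraries and depth, and the order carries no test.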

How the data were processed

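The authors prepared libraries with the TruSeq RNA v2 kit, aligned reads with STAR 2.3.0 (build GRCm38.p2 per the submitters' processing notes) and counted them per gene with HTSeq; the deposited counts are not normalized. The annotation and strand setting used for counting are not given in the sources used here. Of 38355 identifiers, 36602 were named from GENCODE M21. Lines naming no gene stayed out (reads without a feature were 11.22% to 18.18% of uniquely placed reads). The 10 genes and all lists were chosen with earlier results of these data known.

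Each aged group was tested against the 3M group of its library type with edgeR 4.0.16 in R 4.3.3 (TMM, filterByExpr, quasi-likelihood, Benjamini-Hochberg), and DESeq2 1.42.0 was an alternative. Each standard error was taken as the size of the fold change (log2) over the root of F. log2 CPM used a prior count of 2. 24M replicates 1 and 4 entered as their rounded mean. Closeness was computed between genes with at least 1 CPM in every group. Named genes are the 10, the called genes of each list with the smallest p (at most 4), the genes known to act with the 10, and the 3 nearest genes. Alternatives were scaling, filters, 1 fit of all groups, a robust fit, the pair kept apart, a replicate block and each library left out. A few marker genes are not reported here. Scripts were tested on simulated data. Number of counts limits precision for genes of a few CPM.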

Additional observations from a re-analysis of the deposited data

Results flagged for a closer look

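4 of 52 groups of 5 samples held a sample whose gap to its nearest neighbour exceeded 0.71 of the group's range (Dixon's 95% critical value), and chance alone gives about 2.6. Bdnf in 3M single-end replicate 5 had a gap of 0.744 of the range, at 56.2 CPM beside 46.4 to 48.9 CPM. The summed level of the genes upstream of the activity response was highest in the same library, with a gap of 0.755 (10728.6 CPM, the next 10061.8 CPM). The summed striatal level in 3M single-end replicate 4 had a gap of 0.831 (553.7 CPM, the next 261.8 CPM). The summed hypothalamic level in 3M single-end replicate 2 had a gap of 0.791 (12.2 CPM, the next 5.25 CPM).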

How the results depend on the processing

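The number of the 10 genes called at 24M was 4, and 7 with no filter on low counts or with all 4 groups in 1 fit (Npas4, Nr4a1 and Dusp1 added). It was 2 with a robust quasi-likelihood fit (Btg2 and Nptx2), and 5 with 24M replicates 1 and 4 kept apart (Arc, Npas4, Nr4a1, Ier2 and Btg2). With 1 library left out it ranged from 0 to 5: 0 without 3M single-end replicate 4 or without 24M replicate 2 or 6, 1 without 24M replicate 3, and 2 without 24M replicate 5 or 3M single-end replicate 3. The cause was not tested. At 29M it was 0 in every alternative run. The median log2 fold change at 24M stayed between -0.74 and -0.43 and no fold change of a called gene changed sign. The median spread in the 3M paired-end group ranged from 0.10 (without replicate 1) to 0.23 with 1 library left out. Same-numbered samples did not deviate together (correlations of -0.215 to 0.05 at 24M and of -0.1 to 0.113 at 29M), and not every sample correlated best with its own number, so the numbers were not taken as pairs. With a replicate block, and 24M replicates 1 and 4 kept apart, 0 of the 10 genes were called at 24M, and the median was -0.55. At 29M the block gave a median of 0.04. Genes of a few CPM, such as Npas4 and Ier2, are limited by their read numbers.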
